A study of Mus musculus with 12 samples.

Results

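Cluster 7 was one of the clusters into which the authors divided cells of MC38 tumors, and it held 2933 of 93126 cells (3.15%). Its members were the cells that carry the number 7 in the deposited cell annotation. Of the 12021 cells in the 9 T and NK cell clusters (1, 3, 7, 8, 10, 12, 13, 23 and 24, called T/NK cells), cluster 7 made up 24.4%. It held 3 to 248 cells per tumor, with a median of 41.5. Depth was counted in unique molecular identifiers (UMIs), tags that tell captured transcripts apart. Cluster 7 cells were shallow, with a median of 1347 UMIs against 2218 in the other T/NK cells and 3333.5 in all cells. Clusters 8 and 23 were about as shallow, with medians of 1375.5 and 1343 UMIs. The remaining T/NK clusters had medians from 1745.5 to 4577.5 UMIs. In 911 cluster 7 cells (31.1%) fewer than 1000 UMIs were counted.

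Single cell RNA-Seq (10x Genomics 5′ chemistry) was run on 48 tumors of MC38, a mouse colon carcinoma line, grown under the skin of female mice aged 8 to 12 weeks. At 75 to 110 mm3 the mice received 200 µg of isotype control or PD-1 blocking antibody (aPD1), and tumors were taken 48 h later and sorted to 90% CD45+ and 10% CD45- cells. The hosts were C57BL/6J mice (B6) or F1 mice of C57BL/6J with CC001/UncJ, CC002/UncJ, CC075/UncJ, CC036/UncJ, CC079/TauUncJ, CC080/TauUncJ or CC007/UncJ, inbred Collaborative Cross strains bred from several founders. The study classed CC001, CC002 and CC075 F1 hosts as responders to aPD1 and CC036, CC079 and CC080 F1 hosts as non-responders, from tumor growth in other animals, and B6 and CC007 tumors belong to no class here. There were 10 responder isotype, 10 responder aPD1, 9 non-responder isotype and 9 non-responder aPD1 tumors. Each of 12 pools (libraries) held 4 hashtagged tumors, and isotype and aPD1 tumors always carried different hashtags, so hashtag and treatment cannot be told apart. A pair of CC080 tumors, isotype in pool 3 and aPD1 in pool 4, carry the same animal identifier. Of 87940 distinct cell barcodes 4990 occurred in more than 1 pool, and 5 barcodes were in cluster 7 of more than 1 pool.

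Naive T cells circulate between blood and lymphoid tissue. The transcription factors Tcf7 (TCF-1) and Lef1 act in T cell development and in naive and memory T cells, and Klf2 maintains S1pr1, a receptor for leaving tissue. Tcf7 is also known to mark memory T cells and the less differentiated part of exhausted CD8 T cells in tumors. Type I interferon induces antiviral genes such as the Ifit family in most cells.

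The 5 genes that gave the cluster its working name were expressed as the label says. In CPM (UMIs of a gene summed over cells and scaled by the total UMIs of those cells), Tcf7 stood at 153 CPM in cluster 7 and at 28.2 CPM in the other T/NK cells, and Lef1 at 182 against 46.9 CPM. Gimap6, a GTPase of the immune-associated family, stood at 341 against 157 CPM and Sidt1, a membrane protein linked to RNA uptake, at 195 against 40.0 CPM. These 4 levels were the highest of the 9 T/NK clusters. Bcl11b, a factor for T cell commitment, stood at 243 CPM and was exceeded only by cluster 23 (316 CPM). Over the 40 tumors with at least 20 cluster 7 cells, Tcf7 ranged from 19.2 to 275 CPM (median 138) and Lef1 from 38.8 to 559 CPM (median 162), and neither was at 0 in any of these tumors. Because clusters were made from the same transcripts, levels in cluster 7 against other clusters are a description, with no test.

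**Figure D1:**
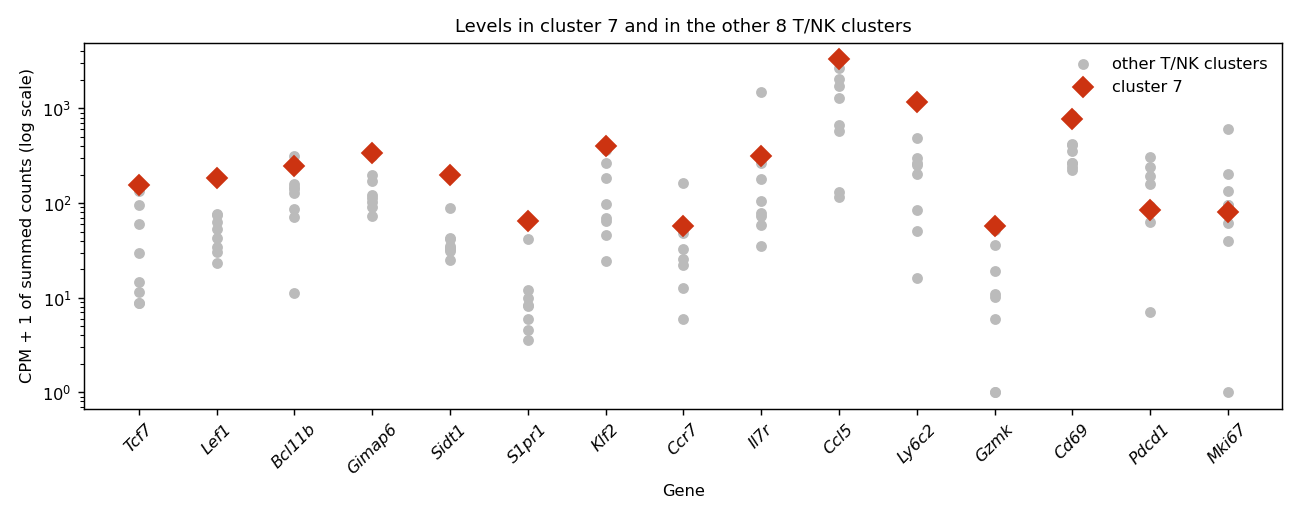
Level of 15 genes in cluster 7 (red diamonds) and in each of the other 8 T/NK clusters (grey circles), as CPM + 1 of summed counts on a log axis. Tcf7 (153 CPM), S1pr1 (63.7 CPM), Ly6c2 (1170 CPM) and Ccl5 (3302 CPM) were highest in cluster 7, whereas Ccr7 (56.1 CPM) was exceeded by another cluster.

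Genes of naive and quiescent T cells were high as a group. Of 18 such genes 17 lay above the other T/NK cells, with a median log2 ratio of 1.18, and 9 were highest in cluster 7 among the T/NK clusters. Over all 8385 genes of at least 10 CPM, 3802 lay above and the median log2 ratio was -0.05. Among genes of at least 50 CPM in cluster 7, with no floor in the other T/NK cells, S1pr1 had the largest ratio. It stood at 63.7 against 6.71 CPM (9.48-fold), and over all clusters of the series it was highest in cluster 22, cancer-associated fibroblasts. Klf2 stood at 397 against 101 CPM and Klf3, a related repressor, at 80.7 against 15.4 CPM. All 8 Gimap genes lay above the other T/NK cells, from Gimap4 at 451 CPM down to Gimap9 at 79.1 CPM. Il7r, the receptor of the survival cytokine IL-7, reached 314 against 133 CPM, and Cxcr4, a chemokine receptor, 318 against 72.0 CPM.

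Other genes went against the word naive, so the cells are called by their cluster number here. Ccl5, a chemokine that naive T cells make little of, stood at 3302 CPM in cluster 7 against 1346 CPM in the other T/NK cells, the highest level of the 9 clusters. Ly6c2, which is raised on memory CD8 T cells and on monocytes, stood at 1170 against 233 CPM, and Gzmk, a granzyme of less differentiated effector and memory cells, at 56.1 against 24.4 CPM. Cd69, an early activation and tissue retention marker, was at 775 against 292 CPM. The naive marker Ccr7, a chemokine receptor for homing to lymph nodes, was at 56.1 CPM, below cluster 10 (163 CPM). To compare clusters of unequal depth, cells of at least 1000 UMIs were thinned to 1000 UMIs, which kept 2022 cluster 7 cells. Ccl5 was then found in 55.5% of cluster 7 cells (56.3% of all its cells before thinning). Clusters 13, 24, 3 and 12 were not far below, at 49.9%, 46.2%, 44.2% and 40.2%. In clusters 1, 8, 23 and 10 it was found in 28.4%, 27.5%, 7.36% and 5.85%. Macrophage cluster 2, whose median was 3881 UMIs, had Ccl5 in 16.3% of cells. Ly6c2 was found in 44.6% of cluster 7 cells and in 30.0% of cluster 2 cells. Among thinned cells with Tcf7 or Lef1 (26.9%), Ccl5 was found in 48.5%, and among the others in 58.1%.

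Checkpoint, regulatory and cell cycle genes lay below the pooled level of the other T/NK cells. None of 12 checkpoint and exhaustion genes, 9 regulatory T cell genes, 14 cell cycle genes or 9 natural killer genes lay above the other T/NK cells. Pdcd1, which encodes PD-1, stood at 84.0 against 170 CPM, Lag3 at 56.3 against 216 CPM and Tnfrsf9 at 192 against 729 CPM. None of the 12 checkpoint and exhaustion genes was at its lowest in cluster 7 among the T/NK clusters. The effector genes were mixed, and 7 of 18 lay above the other T/NK cells. Prf1, which encodes perforin, was at 31.9 against 183 CPM, while Klrk1, an activating receptor, was at 293 against 220 CPM and Fasl, a death ligand, at 104 against 73.5 CPM. Gzmd was listed at 0 in cluster 7, against 50.5 CPM in the other T/NK cells, and Ccl3 was at 75.7 against 963 CPM. The pooled levels were raised by single clusters, with Foxp3 at 247 CPM in cluster 8 and Mki67 at 612 CPM in cluster 1. The regulatory factors Foxp3 (18.1 CPM) and Ikzf2 (460 CPM, rank 3 of 9) in cluster 7 lay above clusters 3, 10, 23 and 24, and the cell cycle genes Top2a (114 CPM) and Hmgb2 (829.4 CPM) above clusters 10, 13 and 23. Cluster 24 set the natural killer level of the other T/NK cells, with Ncr1 at 452 CPM and Klrb1c at 304 CPM. In cluster 7, Ncr1 (16.6 CPM), Klrb1c (34.0 CPM) and Fcer1g (247 CPM) lay above each of clusters 1, 3, 8, 10, 13 and 23, where they reached at most 7.11, 8.61 and 196 CPM. Of the remaining lists, 12 of 18 T cell receptor, 8 of 11 progenitor and memory, 11 of 16 cytokine receptor, 13 of 16 homing, 15 of 18 immediate early and 4 of 9 gamma delta and type 17 genes lay above, as did 2 of 6 CD4, 2 of 6 CD8, 4 of 6 B cell, 1 of 8 dendritic cell and 0 of 8 fibroblast and tumor genes. None of 5 MHC class II or 12 macrophage genes did. The 12 macrophage genes summed to 367 CPM, against 1341 CPM in the other T/NK cells and 18064 CPM in cluster 2, and 117 cluster 7 cells (3.99%) had at least 3 macrophage UMIs. Cluster 12 raised the level of the other T/NK cells, with Lyz2 at 2866 CPM. Lyz2 in cluster 7, at 84.4 CPM, lay above clusters 1, 3, 10 and 13 (39.0, 49.0, 58.5 and 44.5 CPM), as did Apoe and C1qb. Among B cell genes, the immunoglobulin chains Ighm (55.3 CPM, 40.3 in the other T/NK cells) and Igkc (17.4 CPM, 19.5 in the others) were detected, and Ms4a1 was at 0.189 CPM. The dendritic cell markers Flt3 and Siglech and the fibroblast marker Bgn were at 0.

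**Figure D2:**
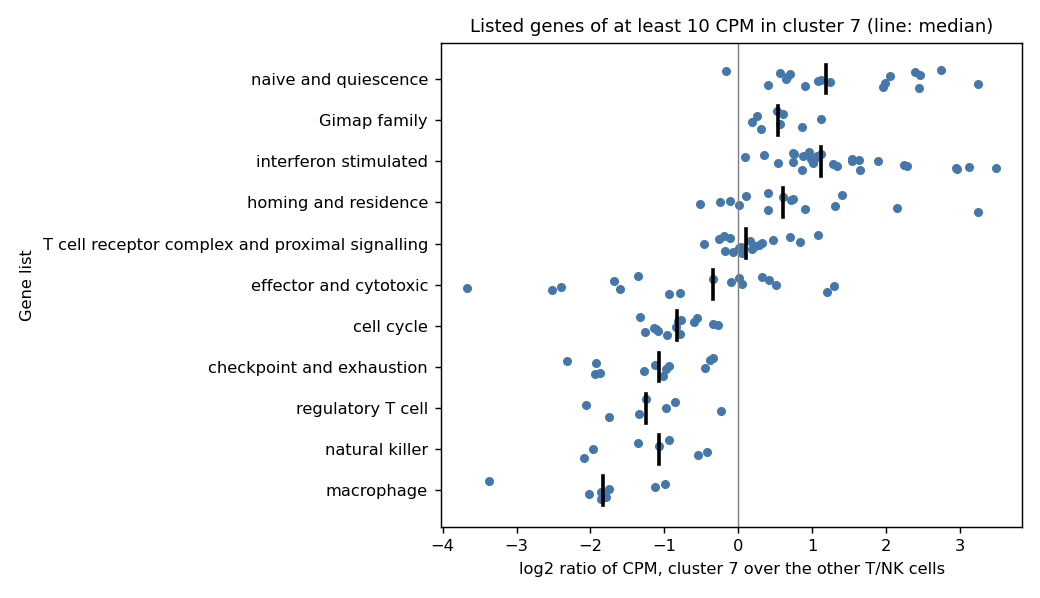
Log2 ratio of CPM in cluster 7 over the other T/NK cells for genes of 11 lists, 1 point per gene of at least 10 CPM in cluster 7, with the list median as a black line. Interferon stimulated, Gimap and nearly all naive genes lie to the right of 0, and checkpoint, cell cycle, regulatory T cell, natural killer and macrophage genes to the left.

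Interferon stimulated genes were high throughout. All 27 genes of this list in the gene table lay above the other T/NK cells, with a median log2 ratio of 1.10. Among the T/NK clusters, 11 of them were highest in cluster 7. Ifit1 and Ifit3, which bind or help to bind viral RNA, stood at 77.3 against 9.93 CPM and at 65.7 against 8.51 CPM. Usp18, a brake on type I interferon receptor signaling, was at 54.4 against 14.6 CPM, and Isg15, a ubiquitin-like protein, at 295 against 93.8 CPM. A UMI of Ifit1, Ifit3, Isg15, Rsad2 or Usp18 was found in 25.2% of thinned cluster 7 cells. That share was 13.9% in cluster 8, 13.5% in cluster 23, 8.24% in cluster 24 and 7.00% in cluster 3. It was 6.82%, 6.54% and 3.55% in clusters 1, 10 and 13. Cluster 12 reached 26.0%, but 78.3% of its cells had at least 3 macrophage UMIs. Ifit1 was also in 7.67% of thinned cluster 7 cells and in 1.17% of macrophage cells of cluster 2, whereas Isg15 was in 18.2% and 20.4%. The listed genes summed to 4144 CPM in cluster 2 and 4111 CPM in cluster 7. Over all clusters of the series, Ifit1, Ifit3 and Usp18 were highest in macrophage cluster 21. The list sum over tumors with at least 10 cluster 7 cells ran from 1580 to 12699 CPM, with a median of 4016 CPM in 44 tumors. Its mean was 7803 ± 3296 CPM (SD, n = 5) in CC079 and 5641 ± 2838 CPM (n = 6) in CC080 tumors, and 3213 ± 766 CPM (n = 6) in CC075 tumors, whose range from 2121 to 3918 CPM lay below all 5 CC079 values (4164 to 12699 CPM). The order did not follow response class, with CC036 (3683 ± 1193 CPM, n = 6), also a non-responder, below the responders CC001 (4663 ± 1998 CPM, n = 7) and CC002 (5023 ± 2695 CPM, n = 6). The summed regulatory T cell genes were also highest in CC079 and lowest in CC075 on average, at 2633 ± 838 CPM in CC079, 1660 ± 956 CPM in CC080 and 852 ± 263 CPM in CC075 tumors, and again every CC075 value (454 to 1206 CPM) lay below every CC079 value (1570 to 3771 CPM). Ifi27l2a alone gave 1459 of the 4111 CPM of the interferon list in cluster 7, and it stood at 3618 CPM in its Cd4 and 1084 CPM in its Cd8 cells. CC079 tumors came from pools 1, 2 and 5 and CC075 tumors from pools 9, 10 and 11, so strain and pool cannot be told apart between them. In CC080 tumors, the interferon sum ran from 3502 to 10644 CPM in pools 3 and 4, and was 4181 and 3116 CPM in pool 11. Their regulatory sum ran from 1189 to 3122 CPM in pools 3 and 4, and was 844 and 668 CPM in pool 11. The parts of the pool and of the cell makeup in the strain values were not tested.

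Upstream sequences of these genes are shown because the whole list lay above the other T/NK cells. The motif searched was GAAANNGAAA, the core of the interferon stimulated response element, on both strands of the 250 bases before the start of each gene. Promoters were in the RefSeq table (GRCm38.p6) for 20 of the listed genes, and the motif was in 15 of them (75.0%), against 978 of all 32851 promoters (2.98%). The 75.0% is a share of genes, with the motif in any promoter of a gene, and the 2.98% is a share of promoters. A match is a description of letters and not a measured site. In the following stretches of 60 bases on the strand of the gene, capitals mark the motif, which reads TTTCNNTTTC on the other strand. They lie at chr19:34640779-34640838 (plus strand), chr19:34583382-34583441 (plus strand), chr4:156200850-156200909 (minus strand) and chr5:120777700-120777759 (minus strand).
Ifit1: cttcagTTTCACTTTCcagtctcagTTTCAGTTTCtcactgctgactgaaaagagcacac
Ifit3: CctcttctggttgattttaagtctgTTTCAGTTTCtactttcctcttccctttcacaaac
Isg15: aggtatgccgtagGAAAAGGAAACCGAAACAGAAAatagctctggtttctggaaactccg
Oas3: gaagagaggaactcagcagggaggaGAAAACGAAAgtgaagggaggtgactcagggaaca
The first capital of the Ifit3 stretch is the end of a second motif, and the Isg15 stretch holds 3 overlapping motifs.

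Cluster 7 was a mixture of CD8 and CD4 T cells with many cells that could not be placed. A UMI of Cd8a or Cd8b1 and none of Cd4 was found in 1012 cells (34.5%), Cd4 alone in 238 cells (8.11%), both in 5 and neither in 1678 cells (57.2%). In macrophage cluster 2, 0.348% of cells had a Cd8a or Cd8b1 UMI without Cd4. Cells with neither had a median of 1137 UMIs, against 1740 in the Cd8 and 1317 in the Cd4 cells. In thinned cells with neither coreceptor, a Cd3 chain (Cd3d, Cd3e or Cd3g) was found in 76.8% and Trdc, the constant region of the gamma delta receptor, in 4.601%. Their Trdc level was 76.8 CPM, against 7.97 CPM in the Cd8 cells and 0 in the Cd4 cells. The listed natural killer genes, except Gzma, were also highest in the cells with neither coreceptor. Ncr1, an activating receptor of these cells, stood there at 33.8 CPM (2.39 in Cd8 and 2.68 in Cd4 cells), Klrb1c at 65.5 CPM (8.37 and 5.36), the signaling adaptor Fcer1g at 456 CPM (79.3 and 42.9) and the chemokine Xcl1 at 662 CPM (144 and 24.1). Over the 33 tumors with at least 10 cells of either kind, Cd8 cells made up 80.0 ± 11.4% (SD) of the cells with 1 coreceptor, from 53.3% to 100%. In thinned cells, Cd8 alone was found in 70.7% of cluster 3. Cd4 alone was found in 37.9% of the CD4 helper T cells of cluster 10 and 13.9% of the regulatory T cells of cluster 8. Cd4 was thus found less often in clusters 10 and 8 than Cd8 in cluster 3. Clusters 10 and 8 also had Cd8 alone in 2.75% and 5.84% of thinned cells. How often each coreceptor was missed in cluster 7 was not tested. The Cd8 percent given for its tumors therefore cannot be read as the share of CD8 T cells in cluster 7.

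Cd8 and Cd4 cells of cluster 7 were compared within the same tumors, 20 tumors of all 8 strains that gave 698 Cd8 and 183 Cd4 cells. Of the 280 genes with enough counts, 43 (15.4%) were higher and 57 (20.4%) lower in Cd8 cells, 35.7% in all (edgeR, adjusted p at most 0.05). Cd4, Cd8a and Cd8b1 made the groups and were left out. Ccl5 ranged from 929 to 9484 CPM (median 4882) in the Cd8 sums and from 0 to 3230 CPM (median 517) in the Cd4 sums. It was higher in the Cd8 cells of all 20 tumors, by 2.38 ± 0.27 (SE) on the log2 scale (edgeR adjusted p = 1.19e-07). Nkg7, a granule protein of cytotoxic cells, was also higher in all 20 tumors, by 1.60 ± 0.26 (adjusted p = 1.93e-05). Ly6c2 was higher in 18 of 20 tumors by 1.52 ± 0.32 and Klrd1, the CD94 receptor subunit, in 19 of 20 by 1.47 ± 0.25. Ribosomal protein genes were the other 6 of the 10 clearest genes higher in Cd8 cells, each by at most 0.59.

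Genes higher in Cd4 cells were led by Dusp1, a phosphatase that ends MAP kinase signaling. It ranged from 190 to 3185 CPM (median 1057) in the Cd4 and from 135 to 1139 CPM (median 408) in the Cd8 sums, lower in Cd8 cells in 19 of 20 tumors (log2 -1.68 ± 0.16, adjusted p = 1.00e-08). Icos, a costimulatory receptor, differed by -1.80 ± 0.23, the hypoxia factor Hif1a by -1.57 ± 0.18 and Ifi27l2a, an interferon stimulated gene, by -1.64 ± 0.19, each lower in Cd8 cells in 18 or 19 tumors. Of 5 tested immediate early and heat shock genes 4 were lower in Cd8 cells (Dusp1, Jund, Junb and Fos). Ifngr1, Itgb1, Skap1 and Trac were also lower. None of the naive and quiescence or regulatory T cell genes had enough counts for this test. In thinned cluster 7 cells, Foxp3 was found in 10.3% of the Cd4 and 0.438% of the Cd8 cells. Over all its Cd4 and Cd8 cells, Foxp3 stood at 75.0 and 2.79 CPM, Ikzf2 at 646 and 161 CPM and Il2ra at 206 and 52.2 CPM. The Cd4 side thus held cells with regulatory genes, and their part in these differences was not tested. Cd4 cells of the fit averaged 1527 UMIs and Cd8 cells 2296 UMIs. With no filter on low counts 1173 genes were called, 1137 of them higher in Cd8 cells, the median log2 change over all genes moved to 0.46, and Dock2, Ddx5, Malat1, Ifngr1, Itgb1, Skap1, Fos and Trac changed sign relative to 0, none past the threshold. Jund (-0.018) and Junb (-0.069) also lost their calls then, and Dusp1 (-0.73, adjusted p = 0.00359) kept its call.

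**Figure D3:**
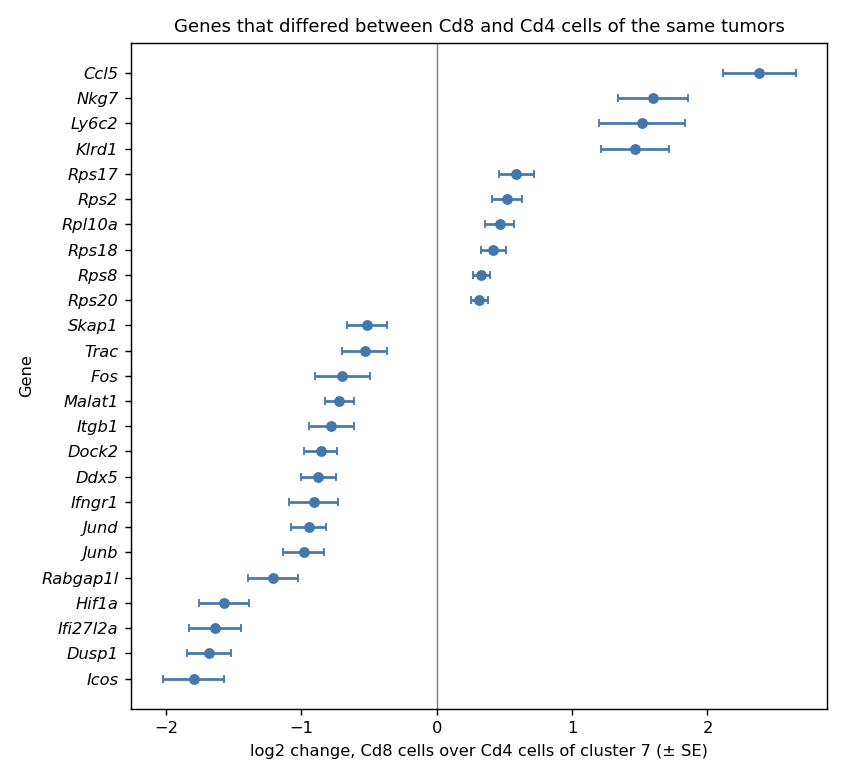
Log2 change (points) with its SE (bars) of 25 genes between Cd8 and Cd4 cells of cluster 7 in 20 tumors. Ccl5 lies farthest to the right at 2.38 and Icos farthest to the left at -1.80.

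Use of T cell receptor beta variable (Trbv) genes was spread out. Among 868 cluster 7 cells with UMIs of exactly 1 Trbv gene, 23 Trbv genes were seen, and 11.7% of 14319 pairs of cells from the same tumor had the same gene. That share was 17.99% in cluster 3, 14.6% in cluster 13, 21.1% in cluster 10 and 11.2% in cluster 8. These shares are a description, and no clonotypes were analysed here.

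Whether cluster 7 differed in abundance between response classes or after aPD1 was asked next. In a sorted sample, a share falls when other cells rise, so fewer cells of a type cannot be told apart from more of the others. Cluster 7 was 0.375% to 8.06% of all cells in responder isotype (median 1.96%, n = 10) and 1.00% to 12.97% in non-responder isotype tumors (median 1.89%, n = 9). After aPD1 it was 0.783% to 6.38% (median 2.79%, n = 10) in responder and 0.178% to 3.72% (median 1.47%, n = 9) in non-responder tumors. These ranges overlapped, and the isotype medians had the opposite order to the means (2.68 ± 2.32% and 4.67 ± 4.63%). The class difference was -1.98 percentage points under isotype (exact permutation p = 0.447) and 1.40 under aPD1 (exact permutation p = 0.113), and neither passed after adjustment over the 22 tests of this family (adjusted p = 0.656 and 0.385). The aPD1 minus isotype difference was 0.476 points in responder (permutation p = 0.353) and -2.90 points in non-responder tumors (exact permutation p = 0.190), and the difference of these effects, 3.38 points, did not pass (exact permutation p = 0.156, adjusted p = 0.385).

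**Figure D4:**
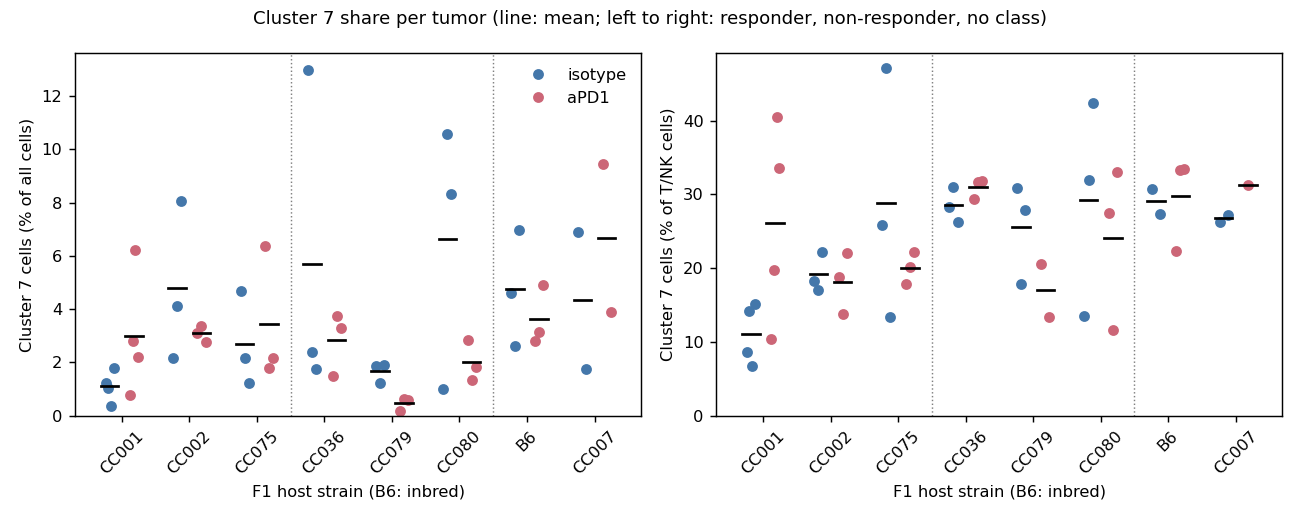
Cluster 7 cells per tumor as percent of all cells (left) and of T/NK cells (right, tumors with at least 50 T/NK cells) by host strain, with isotype tumors in blue, aPD1 tumors in red and group means as lines. The CC036 isotype tumor at 12.97% of all cells and the CC075 isotype tumor at 47.1% of T/NK cells stand highest in their panels.

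Among strains, CC079 tumors had the lowest share of all cells, 1.06 ± 0.72% (SD, n = 6). A test among the 8 strains within treatment gave a permutation p of 0.0554 (adjusted p = 0.305). All 3 CC079 aPD1 tumors (0.178% to 0.608%) lay below all 3 CC079 isotype tumors (1.24% to 1.89%), a strain picked after its values were seen. In CC036 and CC080 tumors the aPD1 share was higher in 3 and lower in 3 of 6 pools. In CC001 tumors, cluster 7 made up 11.1 ± 4.14% (n = 4) of T/NK cells under isotype and 26.1 ± 13.6% (n = 4) under aPD1. The aPD1 share was higher in each of the 4 pools that held both, at 10.3% against 8.59%, 19.8% against 14.2%, 40.6% against 6.67% and 33.6% against 15.1%, a strain likewise picked and given no test. In CC002 and CC075 tumors the aPD1 share was higher in 2 and lower in 4 of 6 pools, among them 17.9% against 25.9% and 20.1% against 47.1% in CC075. Over all responder tumors the aPD1 change was 3.06 points and did not pass (permutation p = 0.315, adjusted p = 0.555). Over responder and non-responder isotype tumors, the T/NK share was 18.8 ± 11.5% (n = 10) and 27.8 ± 8.31% (n = 9), with an exact permutation p of 0.0279 that did not pass the adjustment (adjusted p = 0.205).

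Relative to cytotoxic T lymphocytes (CTLs, clusters 3 and 13), cluster 7 was scarcer in responder strains. The log2 ratio of cluster 7 to CTL cells averaged -1.24 ± 1.29 (SD, n = 10) under isotype in responders, from -2.54 to 1.98, and 1.15 ± 1.39 (n = 9) in non-responders, from -0.86 to 3.47. The difference of -2.39 passed the test (exact permutation p = 0.00145, adjusted p = 0.0160), and 8 of 10 responder tumors lay below all non-responder tumors. After aPD1 the values were -0.71 ± 0.93 (n = 10) and 1.14 ± 0.84 (n = 8), a difference of -1.86 (exact permutation p = 0.000868, adjusted p = 0.0160), with 7 of 10 responder tumors below all non-responder tumors. The study picked clusters 3 and 13 for their enrichment in responders using these tumors, so the ratio is not independent evidence of its direction, and the share of cluster 7 in all cells passed no test. Compared within pools, the differences were -2.44 (exact sign-flip permutation p = 0.0469, 8 pools) and -2.02 (exact sign-flip permutation p = 0.03125, 7 pools). Neither passed after adjustment (adjusted p = 0.361 for each), and so few pools allow only few values of p. Within pools 1 to 5 they were -2.87 and -1.91, and within pools 8 to 12 they were -1.92 and -1.81. A strain rather than a tumor carries the class, and 3 against 3 strains cannot go below an exact permutation p of 0.1. Without CC001 the isotype difference was -1.85 and did not pass (adjusted p = 0.281), nor did it pass without CC002, CC036, CC079 or CC080. The ratio changed by 0.53 after aPD1 in responder and by -0.01 in non-responder tumors, and neither passed (adjusted p = 0.385 and 0.779).

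**Figure D5:**
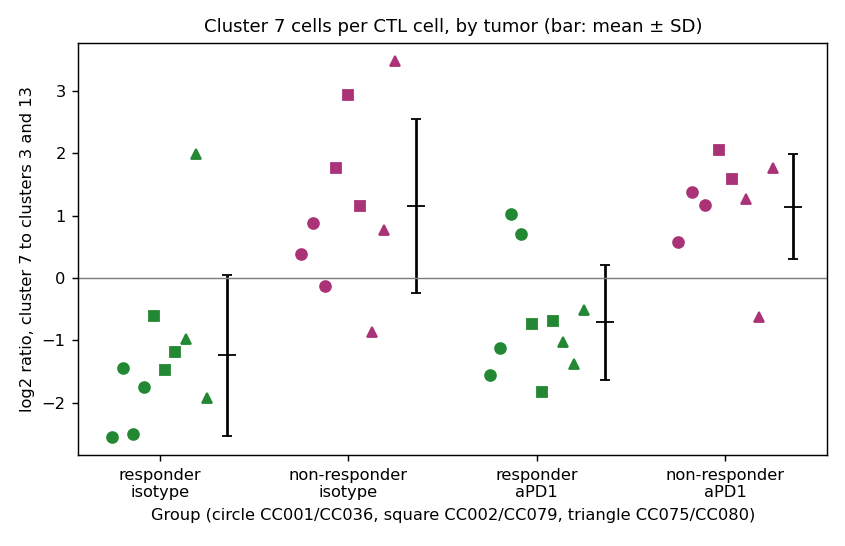
Log2 ratio of cluster 7 cells to cells of CTL clusters 3 and 13 in each tumor, by response class and treatment, with 0.5 cells added to both counts, strain by symbol, and mean ± SD as bars. Responder tumors average -1.24 (isotype) and -0.71 (aPD1), and non-responder tumors 1.15 and 1.14.

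Few genes of cluster 7 passed the test between classes. Counts were summed per tumor in the 36 classed tumors with at least 10 cluster 7 cells, and 1780 genes had enough counts. Of these, 2 were higher (0.112%) and 3 lower (0.169%) in responder strains, 0.281% in all (edgeR, adjusted p at most 0.05), and none of them was in the gene lists. The fit took tumors as replicates and had no term for strain, while class is carried by 3 against 3 strains. Its p-values therefore measure spread among tumors and do not show a difference of class beyond that of strains. Fitted class differences of the markers were small beside their errors, with log2 -0.07 ± 0.22 for Tcf7, 0.02 ± 0.24 for Lef1 and -0.14 ± 0.18 for Bcl11b. The 15 interferon genes tested had a median of -0.16, the 11 naive and quiescence genes -0.07 and all genes -0.002.

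The called genes followed strains. By strain, responders lay apart from non-responders for Gm10260 (3.58 to 8.65 against 872 to 1196 CPM) and Rps18 (2230 to 3013 against 1341 to 1752 CPM). Plac8 strains lay apart too (278 to 478 against 120 to 191 CPM), whereas for Ly6a and Ifitm2 the strains of the classes overlapped. Gm10260 (chr13:97760072-97760632) had a median of 0 CPM in 19 responder tumors, with a highest value of 41.7 CPM, and of 987 CPM in 17 non-responder tumors, with a lowest value of 239 CPM (log2 -7.42 ± 0.30, adjusted p = 4.54e-24). Rps18 (chr17:33951999-33956001), a ribosomal protein gene, was higher in responder tumors by 0.74 ± 0.12 (adjusted p = 0.000299), with medians of 2691 and 1491 CPM. Rps18 did not pass without CC001 or within pools 8 to 12 (adjusted p up to 0.172). Of the 31-base stretches of Gm10260 transcripts, 68.7% also occur in Rps18 transcripts, so reads of the pair may not be told apart and both values are uncertain. The pair summed to 2628 ± 491 CPM (SD, n = 19) and 2582 ± 614 CPM (n = 17). Gm10260 was at 1287 CPM in CC007 and 1.07 CPM in B6 tumors, which have no class, and its strain levels in the other T/NK cells were alike (1345 and 6.44 CPM).

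Ly6a and Ifitm2 shared 31.9% (21.9% with Ly6c1) and 55.5% (38.1% with Gm45717) of their 31-base stretches with other genes, so their values are uncertain too, and Plac8 shared none. Ly6a (Sca-1, an interferon responsive surface protein, chr15:74994877-74998031) was lower in responder tumors by -1.52 ± 0.30 (adjusted p = 0.00555), with values from 195 to 2132 CPM (median 868) and from 435 to 5657 CPM (median 2303). By strain it stood at 4126 CPM in CC079, 2169 CPM in CC080 and 1350 CPM in CC002, while CC036 (789 CPM), CC075 (590 CPM) and CC001 (533 CPM) were lower. Without CC079, CC080, CC001 or CC075, with at least 20 cells per tumor, or within pools 8 to 12 it did not pass. Plac8, a small cysteine-rich protein (chr5:100553725-100572245), was higher in responder tumors by 1.14 ± 0.25 (adjusted p = 0.0233), from 119 to 1033 CPM against 19.2 to 284 CPM, and 11 of 19 responder tumors lay above all non-responder tumors. Without CC001, CC036 or CC075, or within pools 1 to 5, it did not pass. Ifitm2 (chr7:140954837-140955987), a membrane protein that limits virus entry, was lower by -1.84 ± 0.43 (adjusted p = 0.0377), and 719 CPM in CC080 stood against 83.2 to 109 CPM in the other 5 classed strains. Without CC080 its difference was 0.24, and it was called in 6 of 16 alternatives. With the pool in the fit it was no longer called (adjusted p = 0.110). In the other T/NK cells the strain levels were alike, so they were not particular to cluster 7. There Ifitm2 stood at 1088 CPM in CC080 and at 151 to 255 CPM in the other classed strains. Ly6a stood there at 2692 CPM in CC079 and 1964 CPM in CC080, and at 636 to 1163 CPM in the other classed strains. Plac8 stood there at 374 to 528 CPM in responder and 136 to 319 CPM in non-responder strains.

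No gene of cluster 7 passed the test for aPD1 against isotype in responder strains or in non-responder strains, or for the difference of these effects (0% each of 1780 genes, edgeR). At an unadjusted p under 0.05, 45, 35 and 49 genes differed, and DESeq2 also called 0, with 44, 36 and 47 genes at that level. With the pool in the edgeR fit 1 gene was called for the difference of effects, and with no filter on low counts 4, 1 and 5 genes were called. For Tcf7 the log2 change was -0.12 ± 0.30 in responder and -0.39 ± 0.31 in non-responder tumors, and for Lef1 0.34 ± 0.33 and -0.11 ± 0.34. Isg15 moved by 0.55 ± 0.39 and -0.21 ± 0.39, and Ccl5 by -0.02 ± 0.30 and -0.25 ± 0.32. Tyrobp, a signaling adaptor of natural killer and myeloid cells, moved furthest upward in responder tumors (1.11 ± 0.38) and furthest downward in non-responder tumors (-0.99 ± 0.40), with an interaction of 2.10 ± 0.55 that did not pass (edgeR adjusted p = 0.406). Tox, a factor of exhausted T cells, moved by -0.79 ± 0.31 and 0.53 ± 0.34 (adjusted p = 0.999 and 1.00 by edgeR), with an interaction of -1.32 ± 0.45 that did not pass (adjusted p = 0.999).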

How the data were processed

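The authors deposited raw UMI counts per gene and cell with a cell annotation (library, strain, treatment, animal, hashtag and cluster number). Reads had been aligned to GRCm38 (mm10, GENCODE vM23 annotation) with Cell Ranger, cells of high mitochondrial or ribosomal share had been removed, and Seurat 5.0.1 was used for clustering. Cluster 7 and the gene lists were chosen with earlier results of these data known. Named genes were the 5 markers, members of 21 lists, the 20 genes of largest ratio to the other T/NK cells, and in each fit the 10 called genes of smallest p per direction and every called list member; Tox, Tyrobp, genes named at low levels and the comparison of list levels between strains were chosen after their values were seen.

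The replicate was the tumor. Summed counts were tested with edgeR 4.0.16 (TMM, filterByExpr, quasi-likelihood, Benjamini-Hochberg over all genes tested), class and treatment as 4 groups, and Cd8 against Cd4 sums with the tumor as block. Sums held 22255 to 435839 UMIs in the first fit and 4710 to 205078 in the second. Shares were compared by exact two-sided permutation tests of rank sums, with 100000 permutations where both groups had 10 tumors. With the pool as block, the exact p came instead from sign flips of the mean of the paired differences within pools. DESeq2 1.42.0, other filters, normalization, cell minimums, the pool as block, and leaving out strains were alternatives. Pools pair tumors because the labels give the library. No doublet caller was run. The samples are labelled as separate specimens, 1 animal identifier excepted. Analyses used Python 3.11.15, R 4.3.3 and scipy 1.17.1. Gene positions are from GENCODE vM21 (GRCm38). Some genes are not reported here.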

Additional observations from a re-analysis of the deposited data

Results flagged for a closer look

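Single tumors stood apart in 5 of 36 groups tested by Dixon's criterion, which chance meets in about 1 in 20 independent groups of normally distributed values. The percentages and CPM tested here need not be so distributed, and the T/NK percent and the CTL ratio share the cluster 7 count. The CC075 isotype tumor of pool 10 had cluster 7 at 47.1% of T/NK cells, against 25.9% in the next responder isotype tumor, and a log2 ratio to CTL cells of 1.98, against -0.61 in the next. The CC036 aPD1 tumor of pool 10 had 54.8% Cd8 cells among cluster 7 cells with 1 coreceptor, against 76.9% in the nearest of the other non-responder aPD1 tumors. In the CC001 isotype tumor of pool 2, Gm10260 was at 41.7 CPM, against 9.31 CPM in the next responder isotype tumor. In the CC075 isotype tumor of pool 11, Plac8 was at 759 CPM, against 388 CPM in the next.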

How the results depend on the processing

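Of 314 values of the 22 share tests under alternatives, 281 kept their direction and side of the threshold. With the pool as replicate block, the class difference in the log2 ratio to CTL cells was -2.44 (isotype) and -2.02 (aPD1) and no longer passed, the aPD1 change of that ratio in non-responders turned to 0.069, that of the Cd8 percent to 2.69, and 1 gene was called for the interaction; Ifitm2 was no longer called, and no other share test, gene count or named gene changed its call or direction with the pool as block. Leaving out 1 strain at a time, the ratio differed by -2.80 to -1.85 (isotype, not passing without CC001, CC002, CC036, CC079 or CC080) and by -2.17 to -1.63 (aPD1, not passing without CC002, CC036, CC079 or CC080). Within pools 1 to 5 these differences were -2.87 and -1.91 and within pools 8 to 12 they were -1.92 and -1.81, none passing; these 2 settings and the one without the animal identifier that stands on 2 tumors were chosen after seeing the data.

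Differences that had not passed changed sign in places. Leaving out strains, the aPD1 change in responders ran from -0.47 to 1.40 (percent of all cells), -4.85 to 8.11 (percent of T/NK cells), -5.64 to 0.25 (Cd8 percent) and -0.33 to 1.04 (log2 ratio), the non-responder ratio change from -0.34 to 0.19, the class difference in T/NK percent under aPD1 from -5.75 to 0.68, and the difference of aPD1 effects from -2.30 to 10.7 (T/NK percent) and -0.40 to 0.975 (ratio). Within pools 1 to 5, the class difference was 2.36 (T/NK percent, aPD1) and -0.010 (Cd8 percent, isotype). Within pools 8 to 12, the aPD1 change in responders was -0.53 (all cells) and -1.56 (T/NK), its difference from non-responders -1.05 (T/NK) and the non-responder ratio change 0.071. Without cells holding macrophage UMIs, the non-responder Cd8 change was 2.73.

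Of 78 counts of called genes, 67 stayed within 1.5 times. With no gene filter, 77 genes were called between classes, 4 and 1 for aPD1 in responders and non-responders, 5 for the interaction, and 1173 between Cd8 and Cd4 cells; Dock2 (0.068), Ddx5 (0.045), Malat1 (0.22), Ifngr1 (0.018), Itgb1 (0.11), Skap1 (0.39), Fos (0.22) and Trac (0.38) then reversed, the cause was not tested. Class calls numbered 3 within pools 1 to 5, 2 within pools 8 to 12, and 1 to 8 leaving out strains (1 without CC001, 2 without CC075, 8 without CC079), and Ifitm2 ran from -2.38 to 0.24. Sums of few, shallow cells limit these fits to genes of high counts.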
